A study of Mus musculus with 18 samples.

Results

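The PP2A regulatory B subunits are the proteins that join the catalytic and scaffold subunits of protein phosphatase 2A and complete the holoenzyme. The 10 genes described here were chosen by name, and their probes were found by matching the accession of each probe on the array to RefSeq. They were Ppp2r2a, Ppp2r2b, Ppp2r2c and Ppp2r2d of the B55 family, Ppp2r3a of the PR72 family, and Ppp2r5a, Ppp2r5b, Ppp2r5c, Ppp2r5d and Ppp2r5e of the B56 family. They are 10 of the 34289 distinct names on the array and held 14 of its 37246 probes, with 2 probes for Ppp2r2b, 4 for Ppp2r5c and 1 for each other gene.

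PP2A is a serine/threonine phosphatase in which a catalytic and a scaffold subunit form a core that binds a single regulatory B subunit at a time. The B subunit sets which substrates the enzyme reaches and where in the cell it acts, so the same catalytic core can reverse cell cycle, growth factor or DNA damage phosphorylation. B55 enzymes are known for the dephosphorylation that ends mitosis, B56 enzymes for work at the kinetochore and on p53, and PR72 proteins for binding calcium through EF hands.

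Expression was measured on 18 Agilent one-color arrays, 1 for each sample, in 6 groups of 3 samples. ES cells are mouse embryonic stem cells grown on gelatin with leukemia inhibitory factor (LIF) and without feeder cells. ED cells are isogenic cells derived from them, kept without LIF for 1 week or until their stem cell markers were gone. Both were primary cells at early passage. Both were left unirradiated (ES, ED) or received 10 Gy ionizing radiation (IR) and were collected after 15 min (ESRE, EDRE) or 4 h (ESRL, EDRL). The labels say that irradiation was done in triplicate but do not say whether the 3 samples of a group were separate cultures, so the p-values measure the spread between these samples, which may be technical. In bulk RNA, fewer cells of a type and less RNA per cell cannot be told apart.

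A level is log2 of a probe's signal divided by the 75th percentile of signal on the same array, so that 0 is the brightness of that percentile. Levels of different probes are not comparable, since each probe binds its target with its own strength. A gene was called higher or lower when at least 1 probe passed both limits, an adjusted p (limma, Benjamini-Hochberg) below 0.05 and a log2 difference larger than 1 in size. Markers went in the direction of the labels: all 7 pluripotency markers tested were lower in ED than in ES. The summed signal of all 8 listed, which include the untested Zfp42, was 298 to 343 in ES and 5.02 to 5.79 in ED, in units of the 75th percentile. Most of the ED sum came from Sox2, which was not gone in ED. Its mean level was 4.68 in ES and 2.32 in ED. Of 7 fibroblast or mesenchymal markers tested, 6 were higher in ED and Thy1 was lower.

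The arrays of EDRE replicates 2 and 3 stood apart from the rest. Their 75th percentile of signal was 875 and 1155, while no other array was below 1952. The share of spots marked as outliers was 24.4% and 23.8%, and at most 11.1% elsewhere. Of the probes well above background both on all ED arrays and on the array in question, 38.7% and 28.1% lay more than 2-fold from the ED mean on these arrays, against 7.37% on EDRE replicate 1. Members called in a comparison with EDRE are therefore also given without these arrays. Arrays fell into 6 scan times, 1 of which held only these 2 arrays and another only ESRL replicate 1. The 75th percentile of 1952 was that of ESRL replicate 1, and 63.3% of its probes were well above background. That share was 49.5% and 55.5% on EDRE replicates 2 and 3 and at least 70.7% on the rest. No scan time held both groups of any comparison tested, so no comparison could be repeated within a scan time. All 3 ES arrays shared 1 scan time, as did the 3 ED and the 3 EDRL arrays. A difference between such groups thus cannot be told apart from one between scan times. After group means were taken out, arrays of the same scan time had an estimated correlation of 0.81. The p-values take arrays as independent, except where scan time entered as a random block.

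Upstream sequence is shown for the 2 members with the clearest opposite difference between ES and ED cells among those with a RefSeq promoter window, Ppp2r2c and Ppp2r3a. Each window is the 250 bases before an annotated start (RefSeq, GRCm38.p6), printed 5′ to 3′ along the gene, with the CpG dinucleotides in capitals. The Ppp2r2c window is chr5:36868260-36868509 on the plus strand. It precedes a start inside the annotated gene, which begins at 36866846, and the outermost start has no window. Ppp2r3a has an outer start, with the window chr9:101251833-101252082, and an inner start, with the window chr9:101199074-101199323, both on the minus strand.
Ppp2r2c: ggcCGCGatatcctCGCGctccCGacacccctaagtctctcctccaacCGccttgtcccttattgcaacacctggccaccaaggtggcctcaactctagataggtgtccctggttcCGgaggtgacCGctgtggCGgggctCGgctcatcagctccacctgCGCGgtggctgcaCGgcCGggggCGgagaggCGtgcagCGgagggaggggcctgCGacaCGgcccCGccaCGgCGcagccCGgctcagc
Ppp2r3a, outer start: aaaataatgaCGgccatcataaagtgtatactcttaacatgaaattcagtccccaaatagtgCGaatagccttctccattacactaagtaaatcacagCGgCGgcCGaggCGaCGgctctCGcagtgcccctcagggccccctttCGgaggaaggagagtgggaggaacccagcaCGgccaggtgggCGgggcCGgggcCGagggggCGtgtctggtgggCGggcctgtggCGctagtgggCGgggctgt
Ppp2r3a, inner start: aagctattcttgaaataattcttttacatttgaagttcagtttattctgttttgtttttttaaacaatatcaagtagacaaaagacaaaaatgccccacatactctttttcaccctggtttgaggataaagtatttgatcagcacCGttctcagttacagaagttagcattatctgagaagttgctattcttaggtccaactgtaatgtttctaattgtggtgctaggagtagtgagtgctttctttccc

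The Ppp2r2c window held 23 CpGs and the outer Ppp2r3a window 17, more than 86.7% and 76.5% of the 32851 RefSeq windows of this length. The inner Ppp2r3a window held 1 CpG, and only 7.87% of windows held fewer. Both genes thus have a CpG-rich window, and Ppp2r3a also has a CpG-poor one. The GC box GGGCGG, which contains a CpG, was found 1 time in the Ppp2r2c window and 3 times in the outer Ppp2r3a window on either strand, and 32.7% of all windows hold it. The octamer ATGCAAAT, a motif of Oct factors that 1.6% of windows hold, and CATTGT, a motif of Sox factors that 3512 of the 32851 windows hold, were found in none of the 11 member windows on either strand.

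The first question was which regulatory subunits differ between stem and differentiated cells. Of the 8 members tested in ED against ES, Ppp2r2b and Ppp2r2c were lower in ED and Ppp2r3a was higher. The same 3 genes were called in the same direction between the irradiated groups at 15 min and at 4 h. Over all genes tested in ED against ES, 26.7% were called lower and 14.9% higher, so the share of members called was close to that of the array as a whole. With no limit on the size, 5 members had an adjusted p under 0.05, 4 lower and 1 higher, where 32.1% of all genes were lower and 19.4% higher. The median difference was -0.73 over the 12 member probes tested, 8 of them below 0, and -0.19 over all probes tested, 57.3% of them below 0.

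Ppp2r2c encodes B55γ, a subunit known mainly from brain, and its gene lies on chromosome 5 (36866846 to 36955078, GRCm38.p6). Its level was -0.97, -0.88 and -1.02 in the 3 ES samples, -1.60, -1.57 and -1.67 in ESRE, and -2.12, -0.79 and -1.85 in ESRL. It was -7.62, -8.59 and -7.35 in ED, -7.94, -6.59 and -7.48 in EDRE, and -6.87, -6.51 and -7.09 in EDRL. Every ES-type sample lay more than 4 log2 units above every ED-type sample. Over all probes with 3 spots in each group, groups did not overlap for 42.3% (lower) and 29.0% (higher) in ED against ES, 41.3% and 16.3% in EDRE against ESRE, and 35.6% and 32.6% in EDRL against ESRL. The signal was well above background in all 9 ES-type samples, but in only 1 of 3 ED, 1 of 3 EDRE and 3 of 3 EDRL samples, and EDRE replicate 2 lay at the lowest signal of its array.

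The difference was -6.90 (95% confidence interval -7.72 to -6.07, adjusted p = 1.05e-09, limma) in ED against ES, a 119-fold lower signal. It was -5.72 (adjusted p = 6.1e-09) in EDRE against ESRE and -5.24 (adjusted p = 1.6e-08) in EDRL against ESRL, with limma. Without EDRE replicates 2 and 3 the difference of EDRE from ESRE was -6.33. Because most ED and EDRE signals were near background, the size depends on the background correction, and normexp gave -4.47, -2.20 and -3.53 for the 3 comparisons, all still called.

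Ppp2r2b encodes B55β, which is likewise known from neurons, and lies on chromosome 18. The probe for NM_028392 had levels of -3.88, -3.71 and -3.58 in ES and -6.69, -7.24 and -7.15 in ED. In ESRE it had -3.83, -3.55 and -3.73, and in EDRE -8.10, -6.59 and -7.40. In ESRL it had -3.19, -2.99 and -3.36, the second of them a spot marked as an outlier and left out of the fit, and in EDRL -7.32, -7.60 and -7.00. The ES-type and ED-type samples did not overlap, and again the ED-type signals were mostly near background, since it was well above background in 1 of 3 ED, 1 of 3 EDRE and 2 of 3 EDRL samples.

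The difference of this probe was -3.31 (95% confidence interval -3.96 to -2.65, adjusted p = 4.84e-07, limma) in ED against ES, -3.66 in EDRE against ESRE and -4.04 in EDRL against ESRL. The probe for NM_027531, with 2 ES and 2 ESRL spots in the fit, gave -4.07, -3.37 and -4.54. Without EDRE replicates 2 and 3, the EDRE against ESRE values of the 2 probes were -4.40 and -3.55, both called. Both probes of Ppp2r2b thus gave a lower signal in the ED type at every treatment, in 3 comparisons of 3. With normexp the EDRE against ESRE values of the 2 probes were -0.79 and -0.59 and were no longer called. With scan time as a random block, the NM_027531 values in ED against ES and EDRE against ESRE were not called either, with adjusted p = 0.137 and 0.0959.

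Of 8 neuronal markers tested, 5 were lower in ED than in ES (Syp, Rbfox3, Stmn2, Nefl and Dcx), Map2 was higher, and Snap25 and Tubb3 were not called. Their summed signal was 7.36 to 8.37 in ES and 5.54 to 5.84 in ED, with Dcx and Syp not well above background on all 3 ED arrays. The sum uses the brightest probe of each gene. For Dcx that probe had means of -6.58 in ES and -6.88 in ED, and the call came from another of its probes. The part of these markers in the Ppp2r2b and Ppp2r2c difference was not tested.

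Ppp2r3a encodes the calcium-binding PR72 and PR130 proteins from alternative starts and lies on chromosome 9 (101104989 to 101251832). Its level was -3.89, -3.71 and -3.70 in ES, -4.47, -4.03 and -4.14 in ESRE, and -3.69, -4.32 and -4.25 in ESRL. It was -2.55, -2.01 and -1.86 in ED, -1.70, -2.18 and -2.28 in EDRE, the last an outlier spot left out of the fit, and -1.98, -2.13 and -2.26 in EDRL. All 9 ED-type samples lay above all 9 ES-type samples, every one of the 18 was well above background, and the EDRE samples did not stand apart. The array gives 1 probe for the gene, so its signal cannot be divided between the starts shown above.

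The Ppp2r3a difference was 1.63 (95% confidence interval 1.14 to 2.12, adjusted p = 3.11e-05, limma) in ED against ES, a 3.09-fold higher signal. It was 2.27 in EDRE against ESRE and 1.96 in EDRL against ESRL, 4.83-fold and 3.90-fold. Without EDRE replicates 2 and 3, EDRE exceeded ESRE by 2.51. Ppp2r3a was the only member called higher in all 3 comparisons, and each of these calls held under every alternative tried.

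**Figure D1:**
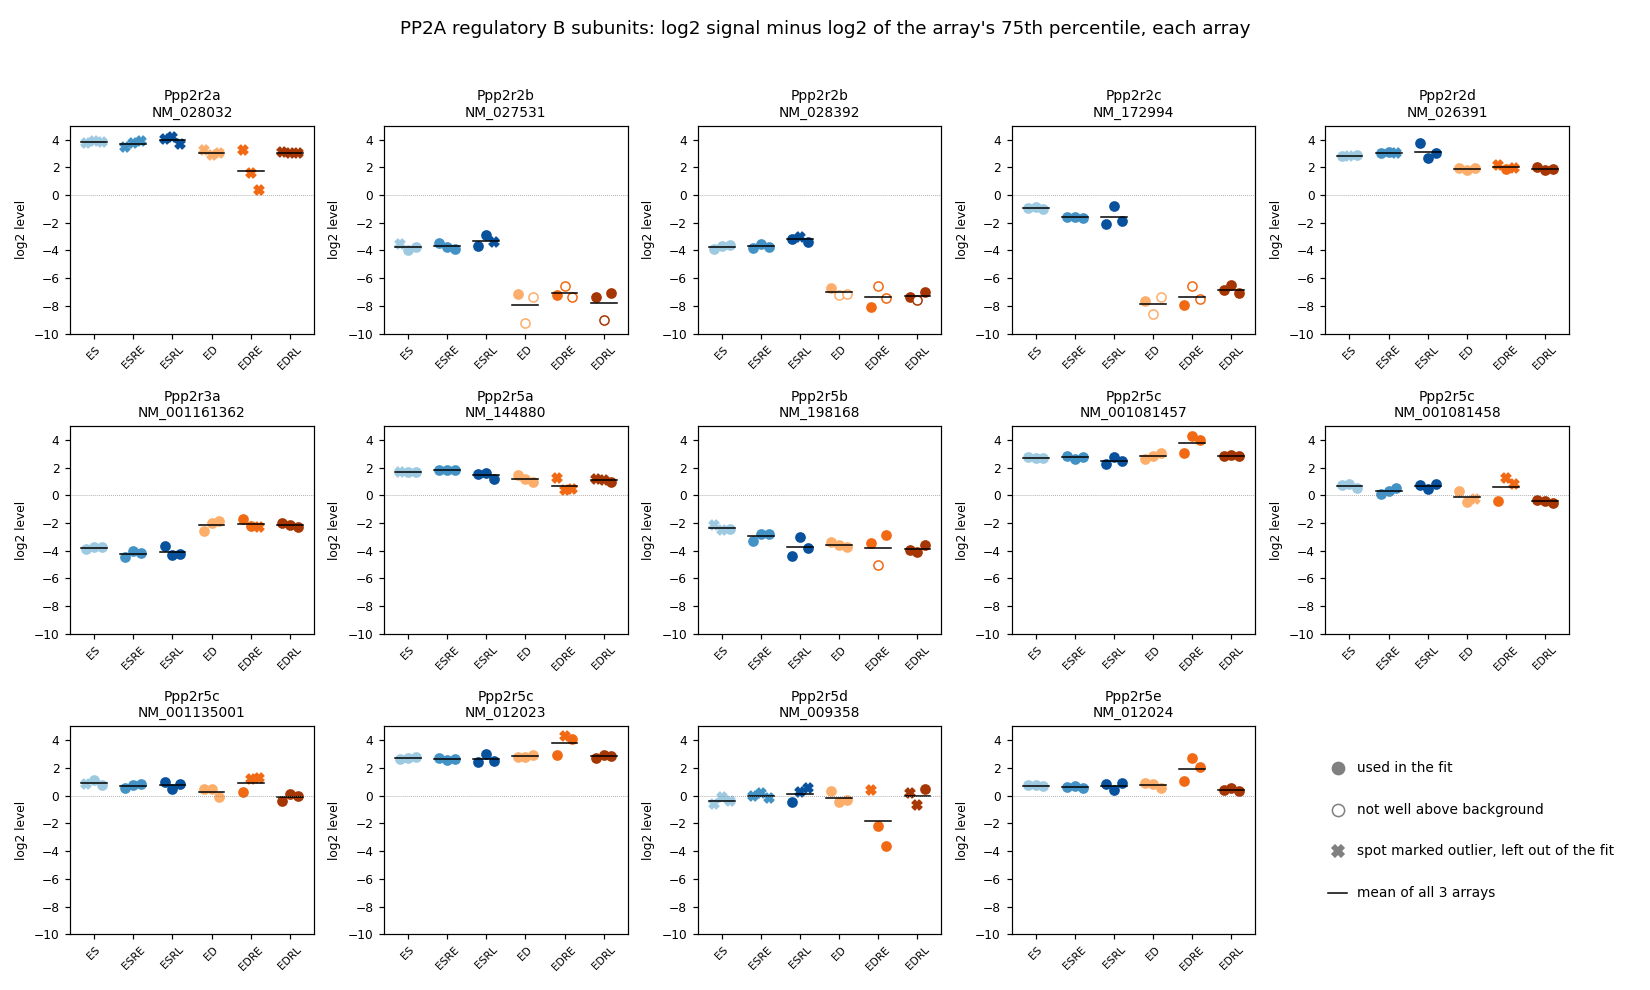
Level of each of the 14 member probes on each array, as log2 of the signal over the 75th percentile of that array, in 6 groups of 3 samples. Circles entered the fit, filled where the spot was well above background and open where it was not. Crosses are spots marked as outliers and left out of the fit, and bars are means of all 3 arrays. Ppp2r2b and Ppp2r2c are low in all 9 ED-type samples and Ppp2r3a is high in them, and EDRE replicates 2 and 3 stand apart for Ppp2r2a, Ppp2r5c, Ppp2r5d and Ppp2r5e.

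The other members of the B55 family, Ppp2r2a and Ppp2r2d, differed less. Ppp2r2d encodes B55δ, which acts at mitotic exit and is inhibited by Ensa and Arpp19, and lies on chromosome 7. Its level was 2.81, 2.84 and 2.90 in ES and 1.94, 1.81 and 1.94 in ED. It was 3.73, 2.67 and 3.03 in ESRL and 2.02, 1.81 and 1.87 in EDRL. The ES-type samples were above the ED-type samples at each treatment. The difference was -0.96 (adjusted p = 0.0103, limma) in ED against ES, within the log2 limit of 1, -1.17 (adjusted p = 0.0136, limma) in EDRE against ESRE and -1.24 (adjusted p = 0.000763, limma) in EDRL against ESRL, and the last 2 were called.

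The Ppp2r2d call in EDRE against ESRE rested on 1 EDRE spot, since the others were marked as outliers, and that spot was of replicate 2, so without it the gene could not be tested. The call in EDRL against ESRL was lost without ESRL replicate 1, where the difference was -0.95. Scaling to the median of the array in place of the 75th percentile moved the median of all probes from -0.19 to 0.46 in ED against ES, and from 35.8% to 58.8% the share of called genes that were higher. On that scale the Ppp2r2d differences in the 3 comparisons were -0.32, -0.56 and -0.76, and none was called.

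Ppp2r2a encodes B55α, a broadly expressed member of the family. Its spot was marked as an outlier on all 18 arrays, so it entered no fit. With those spots kept, its level was 3.74, 3.87 and 3.85 in ES and 3.25, 2.86 and 3.01 in ED, without overlap. The difference of -0.78 was not called (95% confidence interval -1.79 to 0.23, adjusted p = 0.195, limma). In EDRL against ESRL it was -0.91 (adjusted p = 0.109, limma). In EDRE it was 3.26, 1.59 and 0.35, so that the low values were those of replicates 2 and 3.

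**Figure D2:**
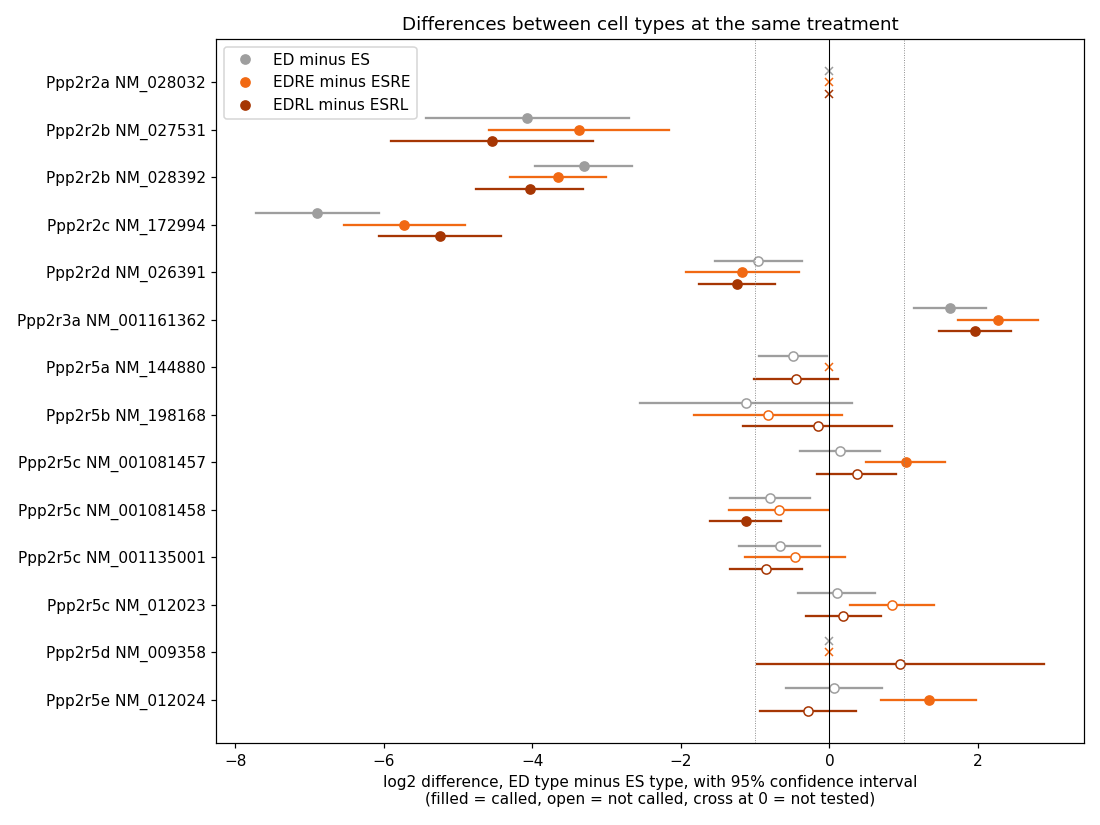
Log2 difference of the ED type from the ES type for each member probe, with its 95% confidence interval, without IR (gray), 15 min after IR (orange) and 4 h after IR (brown). Filled points passed both limits, open points did not, and crosses at 0 were not tested. The intervals of Ppp2r2b, Ppp2r2c and Ppp2r3a lie beyond -1 or 1 in all 3 comparisons, from -6.90 for Ppp2r2c to 2.27 for Ppp2r3a.

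In the B56 family, Ppp2r5a, Ppp2r5b and Ppp2r5e, which encode B56α, B56β and B56ε, were not called in ED against ES. Ppp2r5a lay between 1.67 and 1.71 in ES and between 0.99 and 1.44 in ED, with a difference of -0.49 (95% confidence interval -0.94 to -0.03, adjusted p = 0.0708, limma). On the median scale its difference was 0.17, so its direction depends on the scaling. Ppp2r5b had levels of -2.16, -2.47 and -2.43 in ES and -3.37, -3.59 and -3.69 in ED. Only the third ES spot entered the fit, which gave -1.12 (95% confidence interval -2.55 to 0.31). With the outlier spots kept the difference was -1.20 (adjusted p = 0.0313, limma) and was called, as were 26.4% of all genes in this direction. Ppp2r5e differed by 0.07 (95% confidence interval -0.58 to 0.71) in ED against ES and by -0.29 (95% confidence interval -0.93 to 0.35) in EDRL against ESRL.

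Ppp2r5d encodes B56δ. Its spot was marked as an outlier in all 3 ES and all 3 ESRE samples, and it could not be tested in ED against ES. With those spots kept it lay between -0.57 and -0.13 in ES and between -0.49 and 0.36 in ED, and these overlapped.

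Ppp2r5c encodes B56γ, known for binding p53 after DNA damage, and lies on chromosome 12 (110447144 to 110583075). Its 4 probes, each named for a different transcript, did not move alike. The probe for NM_001081457 had levels of 2.73, 2.68 and 2.72 in ES and 2.65, 2.86 and 3.04 in ED, and that for NM_012023 had 2.66, 2.74 and 2.81 in ES and 2.79, 2.79 and 2.91 in ED. The probe for NM_001081458 had 0.73, 0.82 and 0.55 in ES and 0.31, -0.50 and -0.24 in ED, and that for NM_001135001 had 0.82, 1.15 and 0.75 in ES and 0.48, 0.46 and -0.09 in ED. The first pair overlapped between the cell types, and both probes of the second pair were lower in every ED sample.

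The differences were 0.14 and 0.10 for the first pair and -0.80 (adjusted p = 0.0168, limma) and -0.67 (adjusted p = 0.0416, limma) for the second, which did not pass the limit of 1. In EDRL against ESRL they were 0.37 and 0.19 against -1.13 and -0.85, and NM_001081458 was called lower. These values shift together with the scaling. On the median scale the same 4 differences in ED against ES were 0.78, 0.74, -0.15 and -0.01, so which pair of probes moved cannot be settled from levels.

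The difference between 2 probes of 1 array does not depend on the scaling. All 6 pairs of the 4 probes were therefore compared within each array, as a test added after their values had been seen, with the spots marked as outliers kept. The signal of NM_001081458 relative to NM_001081457 was -2.01 ± 0.16 (SD, n = 3) in ES, -2.44 ± 0.32 in ESRE and -1.79 ± 0.45 in ESRL. It was -2.99 ± 0.57 in ED, -3.20 ± 0.19 in EDRE and -3.29 ± 0.10 in EDRL. At each treatment the 3 ED-type samples lay below the 3 ES-type samples.

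Averaged over the treatments, this difference was 1.08 lower in the ED type, or 2.12-fold. An exact permutation of cell type within treatments gave p = 0.00025 (adjusted p = 0.000375 over the 6 pairs), the smallest p that the 8000 arrangements allow. That p follows from the lack of overlap at all 3 treatments, in values already seen, so it adds no separate support. The other pairs that joined a probe of the first pair with one of the second were lower by 0.89 to 1.03, each with the same exact p, and each without overlap at the 3 treatments. These pairs reuse the same 4 probes and are not separate evidence. How often the probes of other genes part in this way was not tested. NM_012023 against NM_001081457 differed by -0.05 between the cell types (exact p = 0.392) and NM_001135001 against NM_001081458 by 0.14 (exact p = 0.291). EDRE replicates 2 and 3 did not stand apart in this measure, although 2 or 3 of their 4 spots were marked as outliers, and without them the 4 differing pairs had an adjusted p of 0.000938. The ratio shows an unequal change of the probes, not which transcripts changed.

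**Figure D3:**
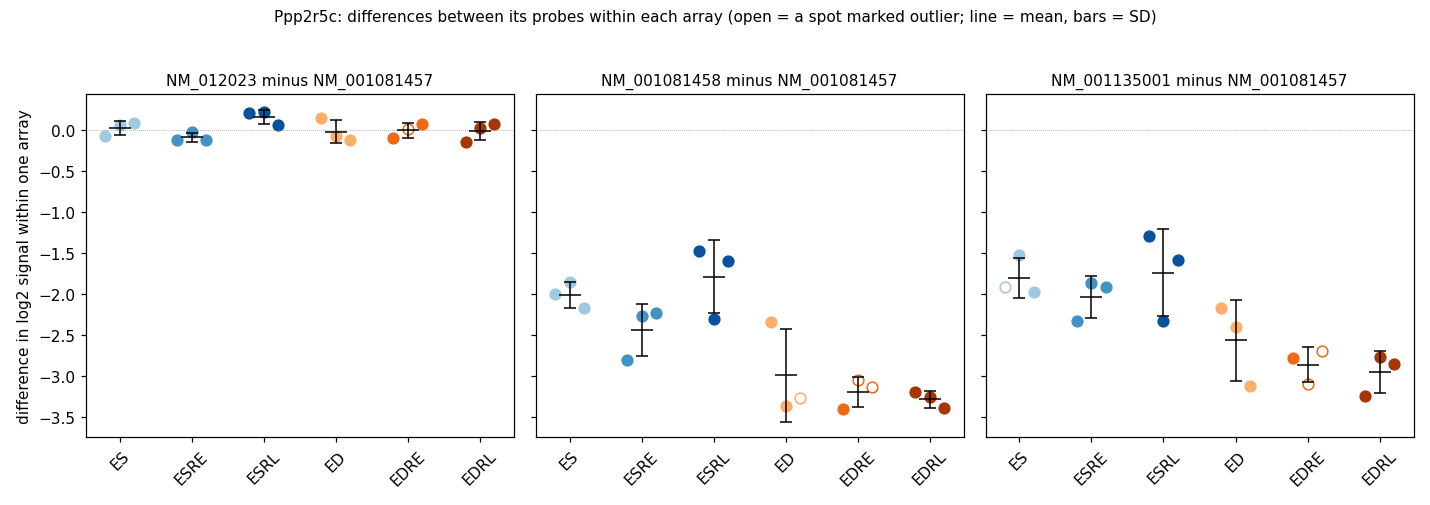
Difference in log2 signal between 2 Ppp2r5c probes of the same array, for 3 of the 6 pairs, in 6 groups of 3 samples. Points are arrays, open points include a spot marked as an outlier, and lines and bars are means and SD. NM_012023 stayed level with NM_001081457 in all groups, whereas NM_001081458 and NM_001135001 were lower relative to it in the ED type, from -2.01 in ES to -2.99 in ED for NM_001081458.

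Between the irradiated groups at 15 min, 6 of the 7 members tested were called in EDRE against ESRE, where 28.1% of all genes tested were called lower and 18.6% higher. Ppp2r2b, Ppp2r2c and Ppp2r2d were lower and Ppp2r3a, Ppp2r5c (NM_001081457, 1.03) and Ppp2r5e (1.34, adjusted p = 0.0014, limma) were higher. With only EDRE replicate 2 left out, Ppp2r2b, Ppp2r2c and Ppp2r3a were called, and Ppp2r5c (NM_001081457) and Ppp2r5e differed by 0.77 and 0.95. With replicates 2 and 3 both left out, these 2 differences were 0.29 and 0.41. The Ppp2r5c call was also lost without EDRE replicate 3, and without ESRE replicate 2. With the outlier spots of all arrays kept, Ppp2r2a, Ppp2r5a and Ppp2r5d were called lower as well, where 29.7% of all genes were lower and 19.2% higher. At 4 h, 5 of the 9 members tested were called in EDRL against ESRL, against 25.0% of all genes lower and 24.5% higher. Ppp2r2b, Ppp2r2c, Ppp2r2d and Ppp2r5c were lower and Ppp2r3a was higher. The 3 comparisons of the cell types share no samples.

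The second question was whether the subunits respond to IR. In ES cells, no member of 8 tested was called at 15 min or at 4 h by limma, and no member had an unadjusted p under 0.05 either, where 9.87% of all genes did at 15 min and 26.4% at 4 h. Over all genes tested, 0.290% were called higher and 0.173% lower at 15 min, and 0.691% higher and 6.90% lower at 4 h. The methods' t-test gave 3 members with an unadjusted p under 0.05 at 15 min (Ppp2r2c, Ppp2r3a and Ppp2r5a) and 1 at 4 h (Ppp2r2b), where 24.4% and 19.0% of all genes had one, and 0 members passed both limits after adjustment.

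The Ppp2r2c difference of ESRE from ES was -0.66 (95% confidence interval -1.48 to 0.17, adjusted p = 0.690, limma) and that of Ppp2r3a was -0.45 (95% confidence interval -0.93 to 0.04, adjusted p = 0.593, limma). Neither passed the test, although in both the 3 samples of the groups did not overlap. Over all probes with 3 spots in each group, 20.9% were lower and 14.1% higher without overlap in this comparison. Ppp2r5b, with 1 ES spot in the fit, differed by -1.30 in ESRL (95% confidence interval -2.72 to 0.13, adjusted p = 0.249, limma).

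In ED cells at 4 h, no member of 8 tested was called by limma, against 1.40% of all genes higher and 0.254% lower, and Ppp2r2c was the 1 member with an unadjusted p under 0.05, where 14.3% of all genes had one. Its level was 1.03 higher in EDRL than in ED (95% confidence interval 0.21 to 1.85, adjusted p = 0.222, limma), with all 3 EDRL samples above the 3 ED samples. Over all probes with 3 spots in each group, 14.8% were higher and 29.8% lower without overlap here. The ED value rests on signals that were well above background in 1 of 3 samples. The p53 target genes, as a check of the irradiation, were called higher in 4 of 6 tested in EDRL (Mdm2, Btg2, Ccng1 and Trp53inp1) and in 1 of 6 in ESRL (Trp53inp1). At 15 min, 2 of 6 were called higher in EDRE (Btg2 and Trp53inp1, with replicates 2 and 3 included) and 0 of 6 in ESRE.

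In ED cells at 15 min, 2 members of 6 tested were called, against 2.23% of all genes higher and 2.97% lower. Ppp2r5e was higher by 1.17 (adjusted p = 0.0348, limma) and Ppp2r5d was lower by -2.78 (adjusted p = 0.0374, limma). The Ppp2r5e level was 0.94, 0.85 and 0.57 in ED and 1.03, 2.73 and 2.09 in EDRE. The Ppp2r5d level was 0.36, -0.49 and -0.31 in ED and 0.43, -2.22 and -3.63 in EDRE, and the first EDRE spot was marked as an outlier and left out. In both genes the difference came from EDRE replicates 2 and 3, while replicate 1 was near the ED samples.

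Without these replicates, no member was called, and Ppp2r5e differed by 0.24 (adjusted p = 0.705, limma). Neither gene was called when any 1 of the 3 ED replicates or EDRE replicate 3 was left out, and over the 18 arrays left out in turn the Ppp2r5e difference ranged from 0.78 to 1.63. On EDRE replicate 1, none of the 11 member probes well above background there and on all ED arrays lay more than 2-fold from its ED mean, against 6 of 10 on replicate 2 and 6 of 11 on replicate 3. On the scan time that EDRE replicate 1 shared with the 3 EDRL samples, its Ppp2r5e level was 1.03 and their mean was 0.42.

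**Figure D4:**
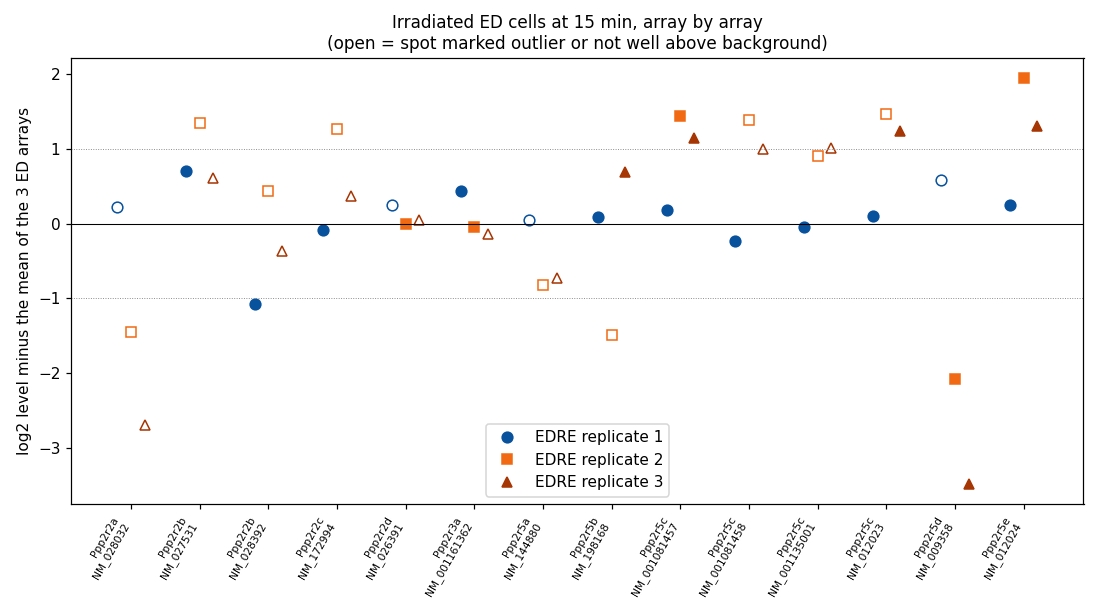
Level of each member probe on the 3 EDRE arrays, as the log2 difference from the mean of the 3 ED arrays. Open symbols are spots marked as outliers or not well above background, and dotted lines mark a 2-fold difference. Replicates 2 and 3 are high for Ppp2r5c and Ppp2r5e and low for Ppp2r2a and Ppp2r5d, and replicate 1 lies within 2-fold of the ED mean for 13 of the 14 probes.

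The interaction of IR and cell type, which asks whether the change after IR differs between ED and ES cells, was called for no member by limma. At 15 min, 3 of 7 members tested had an unadjusted p under 0.05 (Ppp2r2c, Ppp2r5c and Ppp2r5e), as did 19.4% of all genes, and 1.24% of all genes were called higher and 0.850% lower. Without EDRE replicates 2 and 3 no member was called by limma either, and the members with an unadjusted p under 0.05 were then Ppp2r2b (NM_028392, -1.09, adjusted p = 0.154) and Ppp2r3a (0.88, adjusted p = 0.323), whereas Ppp2r2c, Ppp2r5e and the 4 probes of Ppp2r5c had an unadjusted p between 0.198 and 0.770. At 4 h, 1 of 8 did (Ppp2r2c, 1.66, 95% confidence interval 0.49 to 2.83, adjusted p = 0.167, limma), as did 16.02% of all genes, and over all genes 0.911% were called higher and 0.246% lower. The Ppp2r2c group means were -0.96 in ES, -1.59 in ESRL and -1.61 in ESRE, where ES overlapped ESRL and ESRL overlapped ESRE. They were -6.83 in EDRL, -7.34 in EDRE and -7.85 in ED, and these last 3 have no order, because most ED and EDRE spots were not well above background.

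The scan time that held the 3 ED arrays also held ESRE replicate 3, and no other scan time held both cell types. There the ED mean minus the ESRE value was -6.19 for Ppp2r2c, -4.07 and -3.30 for the 2 Ppp2r2b probes and -1.14 for Ppp2r2d. For Ppp2r3a the ED mean was -2.14 and the ESRE value -4.14. These differences within 1 scan time had the direction of those between scan times, with a single ES-type sample and IR as a further difference between the groups.

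The rest of the enzyme was read from a list of 24 other PP2A genes, 23 of them on the array and 21 tested in ED against ES. Ppp2ca, a catalytic subunit, was higher in ED by 1.06 (adjusted p = 0.0135, limma), Ptpa, which activates the catalytic subunit, by 1.08, and Strn, a striatin regulatory subunit, by 1.63. The scaffold Ppp2r1b differed by -1.29, the methyltransferase Lcmt1 by -1.11 and the inhibitor Ensa by -1.29 in 1 of its probes. The other Ppp2r1b probe was well above background on no array. Ppp2r1a, the other scaffold, had no ES spot in the fit and was not tested. With outlier spots kept, its levels overlapped, at 1.32 to 1.90 in ES and 1.33 to 2.25 in ED. Ppp2cb, the other catalytic subunit, differed by -0.09 (adjusted p = 0.736, limma). The other Ensa probe was higher in ED by 0.66 (adjusted p = 0.0486, limma), which did not pass the limit of 1. Called were 3 genes higher and 3 lower of 21, where 14.9% of all genes tested were called higher and 26.7% lower. The median over the 24 probes tested was 0.35, against -0.73 over the member probes and -0.19 over all probes.

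In EDRE against ESRE, 5 of 20 listed genes were called higher (Arpp19, Ensa, Ptpa, Strn and Strn4, by 1.11 to 2.14). Called lower was 1, which was Ensa by another of its probes (-1.04). Of all genes tested there, 18.6% were called higher and 28.1% lower. Without EDRE replicates 2 and 3, Fam122a and Strn were higher and Ensa and Ppp2r1b lower, of 21 tested. In EDRL against ESRL, 3 of 22 were higher (Bod1 by 1.24, Fam122a by 1.32 and Strn by 3.19). Another 3 were lower (Ensa by -1.56, Lcmt1 by -1.10 and Ppp2r1b by -1.25), where 24.5% of all genes were called higher and 25.0% lower. The other Ensa probe differed by 0.58 there (adjusted p = 0.0653, limma) and was not called. After IR alone, Strn was lower in ESRL than in ES by -1.45 (adjusted p = 0.0303, limma), where 6.90% of all genes were called lower. Its level ran from -4.96 to -2.75 in ESRL and from -2.52 to -2.26 in ES. No other listed gene was called in the 4 comparisons of IR with its control. Whether Ppp2ca, Tiprl and Ensa were called depended on the spots and arrays used. Ppp2ca had levels of 1.78 to 2.32 in ES and 3.50 to 3.79 in ESRE, and its difference of 1.32 in ESRE against ES (adjusted p = 0.107, limma) was called with outlier spots kept (1.49, adjusted p = 0.0326) and without EDRE replicates 2 and 3 (1.32, adjusted p = 0.0499), which enter this comparison only through the shared estimate of spread. Tiprl, a regulator of the free catalytic subunit, differed by -1.16 in ESRL against ES (adjusted p = 0.0640, limma), and was called without those replicates (adjusted p = 0.00108). Ensa (NM_001026212) differed by 1.00 in EDRE against ED (adjusted p = 0.0501, limma). It was called with outlier spots kept (1.02) and differed by 0.44 without those replicates.

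The genes whose 6 group means followed those of the Ppp2r2c and Ppp2r2b probes with the widest range were found among 12308 RefSeq probes measured on every array. For Ppp2r2c they were Pramel7, Serpinb9g and Myom3, with root mean square differences of 0.23, 0.25 and 0.25 after each gene was centered. For Ppp2r2b (NM_027531) they were Ly6h, Nfatc2 and Sapcd1, with 0.12, 0.13 and 0.13. Pramel7 fell from -0.86 in ES to -7.89 in ED, and Nfatc2 from -0.03 to -4.35, so the likeness is mainly the step between the cell types.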

How the data were processed

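Cy3-labeled RNA of 18 samples was hybridized to Agilent arrays, 1 sample per array. The intensity values that the authors deposited are processed signals from Agilent Feature Extraction (9.1 in the submitters' notes, 10.7.3.1 in the file headers), corrected for background but not yet scaled across arrays. In addition, log2 values of 30133 probes were deposited. A check on the files gave these as log2 of the signal, floored at 5, less a constant close to the median of the array. The median of each column was between 0.57 and 0.72. Control spots and spots with an outlier mark were removed, and each signal was divided by its array's 75th percentile before log2 was taken. A probe was tested where it was well above background on all 3 arrays of 1 group compared. Group means were estimated for every probe, by pattern of missing spots, and moderated statistics came from limma 3.58.1 (R 4.3.3), and p-values were Benjamini-Hochberg adjusted over all probes tested. It was tested on simulated data. The members and gene lists were chosen with earlier results of these data known. Named were all members, the listed PP2A genes that were called, the other catalytic and scaffold genes, and the 3 genes most like the 2 member probes of widest range. The number of arrays limits the precision. Other marker lists (neural progenitors, endoderm, cardiac and muscle, trophectoderm) had 2 of 4, 3 of 3, 4 of 4 and 3 of 3 tested genes lower in ED than in ES, and 0 higher, and 3 of 6 p53 targets were lower.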

Additional observations from a re-analysis of the deposited data

How the results depend on the processing

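Of the 12 called differences of Ppp2r2b, Ppp2r2c and Ppp2r3a, all were called when any 1 of the 18 arrays was removed, and 189 of 193 values under the other alternatives were called, the exceptions being the Ppp2r2b values under normexp and the scan time block given above. Of the 7 other called differences, 106 of 125 values with 1 array left out and 81 of 115 others were called. None of these values changed sign. In ED against ES, the count of 3 members became 5 with normexp and with no limit on the log2 difference, 1 where both groups had to be well above background, because Ppp2r2b and Ppp2r2c then could not be tested, and 6 with array weights. In EDRE against ED, the count of 2 became 1 with quantile normalization, with the 75th percentile of probes detected on all arrays, with outlier spots kept and with the methods' t-test unadjusted, and 0 with scan time as a random block, with only the groups compared, with the t-test adjusted and without EDRE replicates 2 and 3. In EDRE against ESRE, 6 became 3 with only the groups compared, with the adjusted t-test and without those replicates, and 9 with outlier spots kept. In EDRL against ESRL, 5 became 3 with scaling to the median and with the deposited log2 values. The counts of 0 became 1 with array weights in ESRL against ES, EDRL against ED and the interaction at 4 h, and 3 in the interaction at 15 min, which had 1 with quantile normalization. Array weights gave EDRE replicate 1 the lowest weight, 0.038, and ED replicate 2 and EDRL replicate 2 the highest, 4.62 and 5.41. With 1 array left out the counts ranged from 3 to 4 in ED against ES, 0 to 3 in EDRE against ED, 3 to 6 in EDRE against ESRE, 4 to 5 in EDRL against ESRL, 0 to 2 in the interaction at 15 min (2 without EDRE replicate 1) and 0 to 1 at 4 h (1 without ESRL replicate 2), and stayed at 0 in the others. In EDRE against ED it was 0 without any 1 of the ED replicates or EDRE replicate 3, and 1 without EDRE replicate 2, ES replicate 2 or 3, ESRE replicate 2, or EDRL replicate 2 or 3. The causes were not tested.

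Replicate numbers gave no sign of pairing in the deviations of samples from their group means. The 45 same-number pairs had correlations of -0.27 to 0.16, and the 90 other pairs -0.22 to 0.24. Such correlations cannot show whether samples of the same number shared a culture. With the replicate block the count in EDRE against ED was 1 in place of 2, and no other count changed. All 132 recomputed values of the 6 Ppp2r5c probe pairs, chosen after seeing the data, kept their side of the threshold.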
